A study of Mus musculus with 46 samples.

Results

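Cancer-associated fibroblasts are the connective tissue cells of a tumor, and 10 genes commonly used to find them were followed through the MC-38 tumor model of PD-1 blockade. The set was chosen by gene name, as fibroblast and myofibroblast genes of the table other than the collagens, with earlier results of these data known. It held Pdgfra, Pdgfrb, Fap, Pdpn, Acta2, Postn, Fbln1, Dcn, Lum and Dpt, which are 10 of the 48795 genes in the table. All 10 passed the filter on low values in every comparison.

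Fibroblasts in tumors are activated by growth factors such as the PDGF ligands and TGF-beta, take on a contractile program built on smooth muscle actin, and lay down and remodel the matrix around the tumor cells. They are not 1 cell type: contractile, matrix-producing, inflammatory and resting connective tissue states are commonly distinguished. Several of their marker genes are shared with pericytes, smooth muscle and other mesenchymal cells, and a tumor line can carry some of them itself.

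The study asked how tumor tissue differs after a PD-1 antibody or after loss of PD-1. MC-38 is a mouse colon carcinoma line, grown under the skin of female C57BL/6NTac mice aged 8 to 10 weeks. RNA of 46 bulk samples was sequenced, and each sample had 1 FPKM value per gene (fragments scaled by transcript length and by mapped fragments). FPKM carries no depth, so the spread between samples is the only measure of precision used here.

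The samples were 3 cultures of MC-38 cells and 43 tumors in 7 groups. The 3 baseline tumors are labelled without treatment. Isotype control or PD-1 Ab (muDX400, 5 mg/kg) was given from day 7 after implantation, and 5 tumors of each arm were taken after 1 dose (day 11, labelled 4 days of treatment) and 5 of each after 2 doses (day 15, labelled 8 days). The other groups were 10 PD-1cKO tumors and 10 WT littermate tumors, and both sets of mice received tamoxifen at 40 mg/kg on 5 consecutive days. PD-1cKO mice carry Pdcd1 fl/fl and ROSA26creERT2, a tamoxifen-activated Cre made from a broadly expressed locus, so the deletion of exons 2 and 3 is not limited to T cells. The labels place these tumors at day 28 and the methods of the study name day 22. In bulk tissue, fewer cells of a type and less RNA per cell cannot be told apart.

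Some facts of the whole series bear on the values. In the first isotype control tumor of 1 dose, 54.6% of the FPKM sum came from mitochondrial genes, against at most 7.65% in every other sample, and this tumor was the lowest of its group for 9 of the 10 members. Short noncoding RNA took 30.2% to 66.5% of the FPKM sum in the PD-1cKO and WT tumors and under 0.1% elsewhere, so levels are not set against each other across the 2 experiments. Pdcd1 itself read 5.05 to 19.9 FPKM (median 8.29) in PD-1cKO tumors and 1.71 to 7.02 (median 3.01) in WT tumors, and a whole-gene value does not check the loss of 2 exons. The epithelial marker list, with keratins and Epcam, summed to only 0.658 to 0.793 FPKM in the cultured cells, although the line is labelled colon carcinoma.

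The promoters of 6 of the 10 members (Pdgfra, Acta2, Postn, Pdpn, Fbln1 and Dpt) were listed by RefSeq for GRCm38.p6. Shown here are those of Acta2, the member called after 2 antibody doses, and Dpt, the member whose level followed the other members most closely. Each window runs 5' to 3' on the strand of the gene, from 250 bases before the start of transcription to 50 after it, at chr19:34255324-34255623 (minus strand) for Acta2 and chr1:164796413-164796712 (plus strand) for Dpt. Capitals mark a TATA box (TATAAA) or a TEAD site (CATTCC), found on either strand.
Acta2: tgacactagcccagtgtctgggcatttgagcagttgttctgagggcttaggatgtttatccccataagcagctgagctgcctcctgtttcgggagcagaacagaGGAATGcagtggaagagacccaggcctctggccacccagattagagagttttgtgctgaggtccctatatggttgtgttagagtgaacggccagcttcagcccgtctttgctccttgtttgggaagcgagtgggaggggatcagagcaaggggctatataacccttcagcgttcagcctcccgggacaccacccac
Dpt: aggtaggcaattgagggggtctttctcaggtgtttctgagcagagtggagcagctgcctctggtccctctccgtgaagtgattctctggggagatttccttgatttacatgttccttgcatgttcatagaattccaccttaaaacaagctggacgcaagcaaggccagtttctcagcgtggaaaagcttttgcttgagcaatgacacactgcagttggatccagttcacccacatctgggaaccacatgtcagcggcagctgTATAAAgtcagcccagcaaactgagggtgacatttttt
The Acta2 window held 1 TEAD site, read on the minus strand at positions -146 to -141. The Dpt window held 1 TATA box at positions 13 to 18, after the listed start of transcription. Of the 32817 promoter windows of this length, 14.7% held the TEAD site and 13.6% the TATA box. Neither window held a perfect CArG box (CC, 6 of A or T, GG, present in 1.63% of windows) or an AP-1 site (TGANTCA, 7.81%). Only exact matches were searched. The Acta2 window includes ccctatatgg and ccttgtttgg, each 1 base away from the CArG pattern. It also includes ctatataacc, in which tataac is 1 base away from TATAAA. E-boxes (CANNTG), found in 72.3% of windows, occurred 3 times in Acta2 and 7 times in Dpt. The motifs did not overlap each other in these windows, and a match describes the letters and does not show a bound site.

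The members first differed in whether the tumor cells made them in culture. Cultured MC-38 cells, free of stroma, had clear levels of both PDGF receptors, podoplanin, decorin, periostin and fibulin-1, and only Fap, Acta2, Lum and Dpt were near 0 there. Pdgfra, which encodes the PDGF receptor alpha chain, read 35.6, 37.0 and 38.5 FPKM in the 3 cultures. Pdpn, a mucin-like membrane glycoprotein of fibroblasts and lymphatic endothelium, read 38.2, 39.4 and 41.4 FPKM. For these genes the culture level lay above every one of the 5 isotype control tumors of 2 doses, which ranged from 17.3 to 35.6 FPKM for Pdgfra and from 27.7 to 37.9 for Pdpn.

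Pdgfrb, the beta chain receptor of fibroblasts and pericytes, read 14.1 to 16.2 FPKM in culture. Dcn, a small leucine-rich proteoglycan that binds collagen fibrils, read 13.8 to 16.2, and Postn, a matricellular protein of remodeling tissue, 12.1 to 12.98. Fbln1, a secreted fibulin of elastic fibers and basement membranes, read 7.78 to 9.23. Culture levels of these 4 genes thus lay well above 0 and below every isotype control tumor of 2 doses.

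Fap, a cell surface serine protease, read 0.0854 to 0.086 FPKM in culture. The Acta2 gene, for smooth muscle alpha-actin, read 0.0528 to 0.147, and Dpt, for the matrix protein dermatopontin, 0.261 to 0.327. Lum, for the collagen-binding proteoglycan lumican, was listed at 0 in 1 culture and at 0.0181 and 0.0348 in the others. Only these 4 members were near 0 in the tumor line. The RNA of the other 6 cannot be assigned to fibroblasts alone in these tumors, and the share made by tumor cells was not separated. For the 4, cultures do not show which cells made them in tumors, where tumor cells and other mesenchymal cells were not tested.

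Isotype control tumors of 2 doses were compared with the cultures to give the size of the difference. Calls came from limma and needed both a 2-fold change and a Benjamini-Hochberg adjusted p below 0.01, and fold changes are on the scale of log2(FPKM + 0.1), which understates those of genes near 0. Of the 10 members, 8 were called higher in tumors, against 14.2% of all tested genes (percent called higher in this comparison). Acta2 was higher by 7.78 on the log2 scale (SE 0.20, adjusted p = 3.06e-09), Dpt by 5.53 (SE 0.29, adjusted p = 4.22e-07), Fap by 4.90 (SE 0.28) and Lum by 4.63 (SE 0.42). These were the 4 genes near 0 in culture, and with 1 FPKM added in place of 0.1 their differences were 5.28, 3.87, 2.58 and 1.93, of which those of Dpt, Fap and Lum lay below the 4.44 of Postn in that setting. The differences for the genes that the line expressed were 4.53 for Postn (SE 0.32), 2.40 for Dcn (SE 0.20), 1.62 for Pdgfrb (SE 0.16) and 1.23 for Fbln1 (SE 0.14, adjusted p = 7.19e-05, the highest of the 8). Pdgfra was lower in tumors by -0.55 (95% interval -0.98 to -0.11, adjusted p = 0.037) and Pdpn by -0.30 (interval -0.54 to -0.06, adjusted p = 0.038), and neither was called. Nothing in the labels says that the 3 cultures were independent, so their spread may be technical.

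**Figure D1:**
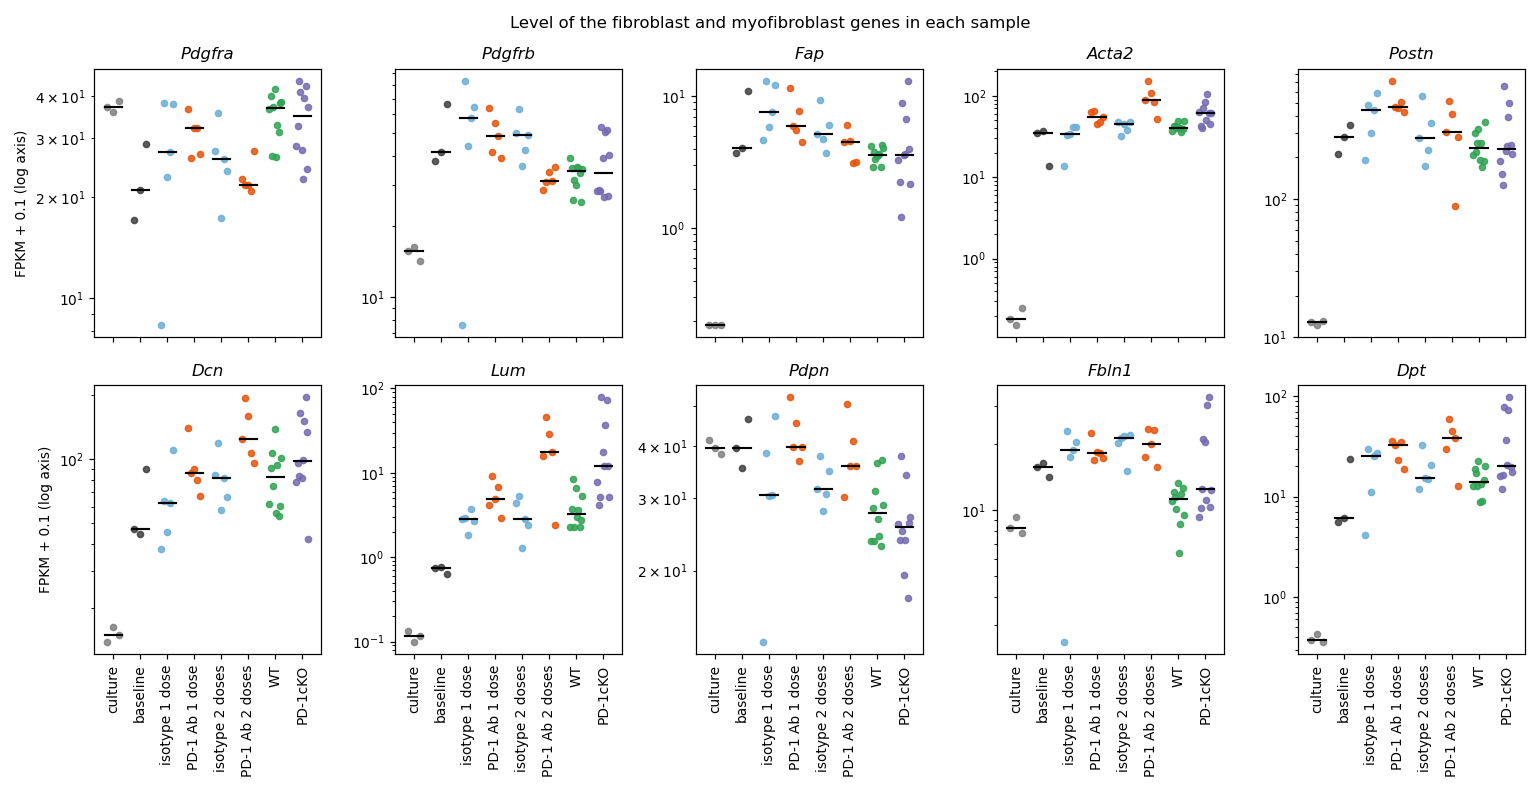
FPKM plus 0.1 on a log axis for each of the 10 members in the 8 groups, 1 point per sample and a line at the group median. Fap, Acta2, Lum and Dpt lie near the floor in the 3 cultures, where Pdgfra and Pdpn are as high as in tumors, and the first isotype control tumor of 1 dose lies low in most panels.

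Across the 6 groups of cultures, baseline tumors and antibody arms, the order of means rarely separated neighbors. Of the 5 pairs of groups next to each other in that order, the ranges overlapped in all 5 for Pdgfra and Pdpn, in 3 for Pdgfrb and Lum and in 4 for each of the other members. The group means of Pdgfra ran from 22.2 FPKM in baseline tumors to 37.02 in culture, and those of Pdpn from 31.9 in isotype control to 42.8 in PD-1 Ab-treated tumors of 1 dose. Among the tumors of these groups, Lum means went from 0.619 FPKM at baseline to 22.07 after 2 antibody doses. Postn had the highest FPKM of the members in each of the 7 tumor groups, with means of 279 to 515 FPKM here and of 247 in WT and 294 in PD-1cKO tumors.

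The PDGF ligands, which activate Pdgfra and Pdgfrb, were listed beside the receptors. All 4 were called higher in isotype control tumors of 2 doses than in culture, with a log2 difference of 3.85 for Pdgfb (SE 0.19), 1.64 for Pdgfc (SE 0.11), 1.505 for Pdgfd (SE 0.34) and 1.15 for Pdgfa (SE 0.10). Pdgfb had a mean of 0.307 FPKM in culture and 5.86 in these tumors, and Pdgfa 29.6 and 66.1 FPKM.

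Baseline tumors, against isotype control tumors of 2 doses, had no called member, where 0.595% of tested genes were called in either direction (89 of 14967, and 2647 at an unadjusted p under 0.05, 4 of them members). Lum read 0.528, 0.654 and 0.674 FPKM in the 3 baseline tumors and 1.204, 2.28, 2.74, 4.27 and 5.16 FPKM in the isotype control tumors. The groups did not overlap, and the log2 difference of -2.02 (SE 0.41, adjusted p = 0.033) missed the limit. With array weights, or without the third isotype control tumor, Lum passed. One baseline tumor had higher Dpt (23.7 FPKM) than the others (5.45 and 5.97). Among isotype control tumors, 2 doses against 1 dose called 0 of the 10 members and 0% of genes (0 of 14445, with 996 at an unadjusted p under 0.05, none a member, and 29 called with array weights). Sample identifiers begin with 1377 in baseline tumors, 1472 in isotype control tumors of 2 doses, and 1509 or 1510 in those of 1 dose. In both comparisons the groups and these runs of identifiers cannot be told apart, and whether the runs are batches is not stated.

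After 1 dose of antibody, the question was whether these genes had moved early. None of the 10 members was called, and neither was any of the 14556 genes (0%), with 895 genes at an unadjusted p under 0.05. The other fits called 0 to 22 genes and no member. Acta2 read 45.5, 47.3, 55.6, 62.8 and 64.5 FPKM in PD-1 Ab-treated tumors and 13.8, 32.6, 33.7, 41.3 and 41.9 in controls. All 5 treated tumors lay above every control, and the log2 difference was 0.84 (SE 0.29, adjusted p = 0.59). Sample identifiers of isotype control tumors 1 to 3 begin with 1509, and those of controls 4 and 5 and all treated tumors with 1510. Controls 4 and 5 read 41.3 and 41.9 FPKM of Acta2. Whether such runs of identifiers are batches is not stated.

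Lum read 2.78, 4.09, 4.74, 6.61 and 8.97 FPKM after 1 dose and 1.74, 2.57, 2.76, 2.79 and 3.59 in controls. Of the 5 treated tumors, 4 lay above every control, with a log2 difference of 0.91 (SE 0.32, adjusted p = 0.60). Acta2 and Lum were the members with an unadjusted p under 0.05. The other 8 members had log2 differences between -0.26 (Fap) and 0.85 (Dpt). In this comparison the median of all tested genes was itself 0.26, and 0.01 after median-of-ratios scaling. With values as deposited, 88.3% of all tested genes had a log2 difference above 0. How many of all genes had treated tumors above or below every control was not counted, in this or the later comparisons. Without the mitochondria-rich control tumor, Acta2 differed by 0.55 and Lum by 0.93, Dpt went from 0.85 to 0.37, and Pdgfra, Pdgfrb and Fbln1 turned to -0.02, -0.32 and -0.10. The directions of these 3 genes therefore depended on that library.

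After 2 doses the contractile gene Acta2 was higher, the proteoglycan genes Lum and Dcn had higher values and Pdgfrb lower values that missed the limit, and the values of Pdgfra, Fap, Postn, Pdpn and Fbln1 differed little beside their errors. One of the 10 members was called higher, which was Acta2, against 5.03% of all genes called higher in this comparison, and none was called lower. In either direction 799 of 15062 genes were called, 94.9% of them higher. Acta2 read 51.3, 84.1, 89.9, 110 and 153 FPKM in the PD-1 Ab-treated tumors and 31.8, 37.5, 45.7, 47.3 and 48.1 in controls. Every treated tumor was above every control, with means of 97.6 ± 37.5 and 42.1 ± 7.14 FPKM (SD, n = 5). The log2 difference was 1.14 (SE 0.24, 95% interval 0.61 to 1.67, adjusted p = 0.0076). The call was close to its limit: over 18 alternatives the adjusted p lay between 1.42e-04 and 0.027, and it passed in 6 of them. The only omission of a tumor that kept it was that of PD-1 Ab-treated tumor 5, which lowered the adjusted p to 3.71e-04.

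Lum had the largest difference of the members and missed the limit. Its values were 2.33, 15.7, 17.8, 28.4 and 46.1 FPKM in PD-1 Ab-treated tumors and 1.204, 2.28, 2.74, 4.27 and 5.16 in controls. Tumor 5 of the treated group lay within the control range and the other 4 above it. The log2 difference was 2.42 (SE 0.67, 95% interval 0.96 to 3.89, adjusted p = 0.024), and without tumor 5 it was 3.09 (adjusted p = 3.21e-04).

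Dpt read 12.6, 29.5, 37.98, 44.5 and 59.3 FPKM after antibody and 11.7, 14.7, 15.3, 20.5 and 32.4 in controls. Its log2 difference was 0.88 (SE 0.38, adjusted p = 0.11) and, without tumor 5, 1.22 (adjusted p = 0.0081). Tumor 5 was again the lowest of the treated group. Dcn read 95.8, 106, 124, 160 and 193 FPKM after antibody and 57.8, 66.6, 81.8, 84.0 and 119 in controls. The groups overlapped in 2 treated tumors, and the log2 difference was 0.73 (SE 0.22, adjusted p = 0.034). The Dcn and Lum genes lie next to each other on chromosome 10 of GRCm38 (97479609 to 97518143 and 97565128 to 97572703, both on the plus strand), with 46984 bases between them, and share none of their 50-base stretches with another gene.

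Pdgfrb values lay on the other side of the controls. This gene read 28.6, 30.7, 31.03, 33.9 and 35.8 FPKM after 2 antibody doses and 36.2, 42.2, 48.7, 49.7 and 63.1 in controls, so that all 5 treated tumors lay below every control. The log2 difference was -0.56 (SE 0.14, 95% interval -0.86 to -0.27, adjusted p = 0.014), smaller than 2-fold and not called. Over the alternative settings its adjusted p ranged from 3.4e-04 with array weights to 0.35 with all tumor groups in 1 fit. Its partner Pdgfra differed by -0.16 (interval -0.52 to 0.20), and Fap by -0.40 (interval -0.96 to 0.16). The differences of Postn (-0.09, interval -1.04 to 0.86), Fbln1 (-0.01, interval -0.33 to 0.31) and Pdpn (0.24, interval -0.07 to 0.54) also had intervals that include 0.

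**Figure D2:**
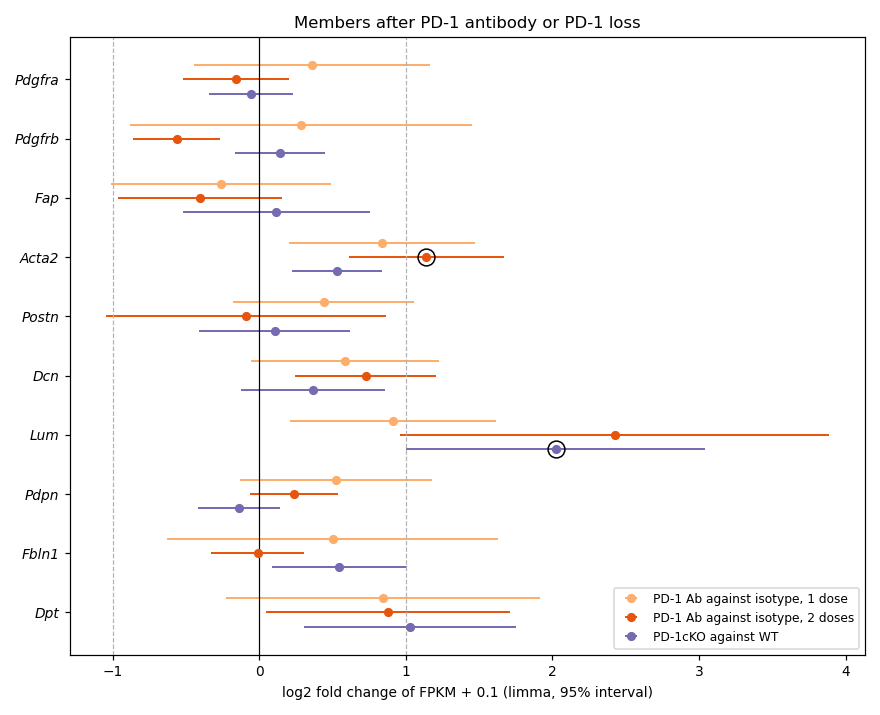
Log2 fold changes of FPKM plus 0.1 for each member with 95% intervals from limma, for PD-1 Ab against isotype control after 1 dose (n = 5 and 5) and 2 doses (n = 5 and 5) and for PD-1cKO against WT (n = 10 and 10). Circles mark the called values, Acta2 after 2 doses (1.14) and Lum in PD-1cKO (2.02), and dashed lines mark a 2-fold change.

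The genes around these members were described by lists. Among contractile and mural cell genes, 3 of 19 were called higher after 2 doses: Cnn1 (calponin, 2.48, SE 0.50), Tagln (transgelin, an actin-binding protein of smooth muscle, 1.92, SE 0.42) and Des (desmin, 1.66, SE 0.32), each as a log2 difference. The median of this list was 0.86, beside -0.04 for all genes. Of the PDGF ligands, Pdgfb rose (1.21, SE 0.20, adjusted p = 0.0026, from 5.86 to 13.9 FPKM), and the other 3 were not called. Of 8 tested small leucine-rich proteoglycans other than Dcn and Lum, Podn rose (2.15, SE 0.48), and the list median was 1.18.

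Fibulin, elastic fiber and matricellular genes had 4 of 24 called higher, with Mfap2 at 2.50 (SE 0.55) and Thbs1 at 1.46 (SE 0.22), and a median of 0.54. Resting connective tissue fibroblast genes had 4 of 20 called higher, led by Clec3b at 3.11 (SE 0.59) and Pi16 at 2.48 (SE 0.49), and a median of 1.03. Activated tumor fibroblast genes had 2 of 16 called higher, which were Thy1 (1.96, SE 0.35) and Loxl2 (1.88, SE 0.40), and a median of 0.46. Thy1 is also a T cell gene. Of 12 inflammatory fibroblast genes, 1 was called and it fell: Cxcl1, a neutrophil chemokine, by -1.81 (SE 0.24), from 15.5 to 4.12 FPKM.

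Markers of other tissues moved in the same tumors. The adipocyte list summed to 549, 699, 697, 917 and 44.2 FPKM in PD-1 Ab-treated tumors 1 to 5 of 2 doses and to 16.7 to 139 in controls, with 2 of 9 genes called (Plin1 and Pparg) and a median of 2.75. Tumor 5, low in Lum, Dpt and Acta2, was thus also the tumor lowest in adipocyte markers and was the highest in skeletal muscle markers (103 FPKM, the others 3.96 to 14.9, controls 2.78 to 3.97). The endothelial sum was 106 to 160 FPKM in treated tumors 1 to 4, 46.7 in tumor 5 and 44.0 to 50.9 in controls. The T cell sum was 133 to 219 in tumors 1 to 4, 54.1 in tumor 5 and 14.5 to 28.2 in controls, with all 10 genes called, and 8 of 10 macrophage genes were called. No gene of these 4 lists (adipocyte, endothelial, T cell and macrophage) was at 0 in every tumor of either group, and 1 of the 10 muscle genes was at 0 in all controls. The Schwann cell list had 1 of 6 called, the lymphatic and mesothelial list 1 of 2, and the skin and epithelial lists 0 of 3 and 0 of 6. The muscle list had 1 of 10 called and a median of 1.71. Though none of its genes was called, the epithelial list had a median of 1.56. Its sum ran from 2.95 to 52.8 FPKM in treated tumors (median 41.6) and from 2.39 to 27.6 in controls (median 6.12). The part of these tissues in the member differences was not tested.

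**Figure D3:**
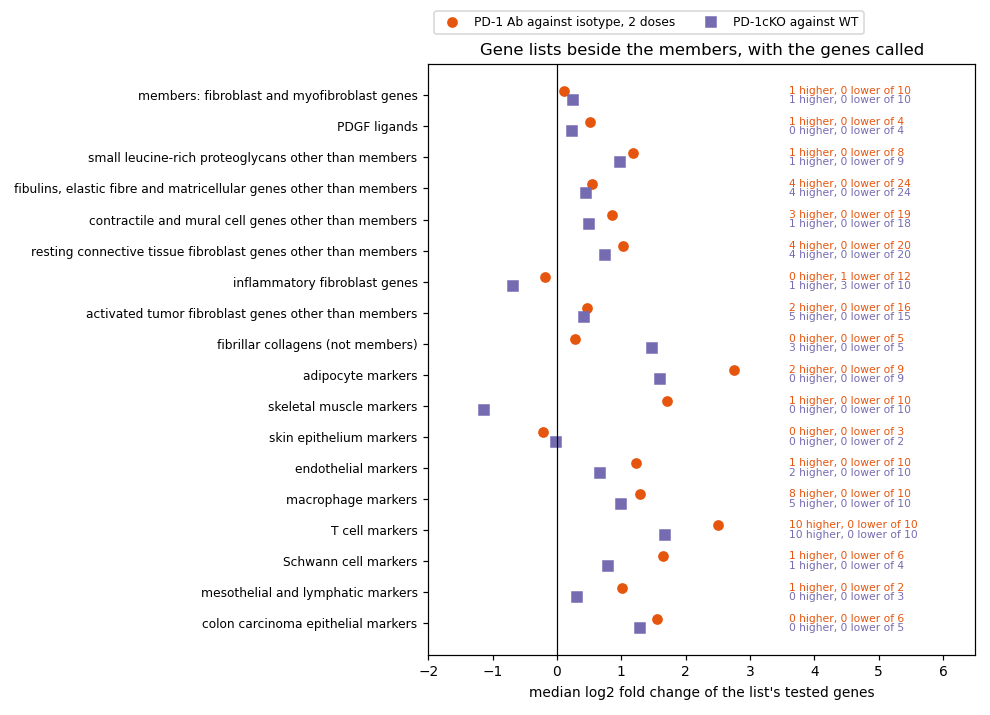
Median log2 fold change over the tested genes of each list for PD-1 Ab against isotype control after 2 doses (circles) and PD-1cKO against WT (squares), with the numbers of genes called at the right. The members have medians of 0.11 and 0.26, below most of the other connective tissue lists, and the T cell list has all 10 genes called higher in both.

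Between the antibody arms of 2 doses and 1 dose, 0 of 10 members and 0.0598% of genes (9 of 15052) were called, with 5380 genes and 7 members at an unadjusted p under 0.05. All sample identifiers begin with 1472 after 2 doses and with 1510 after 1 dose. The number of doses and the run of identifiers therefore cannot be told apart here. Pdgfrb was lower after 2 doses by -0.61 (SE 0.13, adjusted p = 0.018) and Pdgfra by -0.42 (SE 0.11, adjusted p = 0.029). Pdgfra read 20.7 to 27.2 FPKM after 2 doses and 26.0 to 36.3 after 1 dose, and Pdgfrb 28.6 to 35.8 and 39.1 to 63.8. Only the Pdgfra ranges overlapped. Acta2 and Lum differed by 0.75 (SE 0.24, adjusted p = 0.053) and 1.60 (SE 0.66, adjusted p = 0.11). Lum passed the limit without PD-1 Ab-treated tumor 5 of 2 doses (2.27, adjusted p = 0.0017).

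In the PD-1cKO experiment 1 of the 10 members was called higher, which was Lum, against 4.20% of all genes called higher, and none was called lower. In either direction 1217 of 15075 genes were called, 52.0% of them higher. Lum ranged from 4.02 to 78.3 FPKM in PD-1cKO tumors (median 12.0) and from 2.16 to 8.46 in WT tumors (median 3.18). Of the 10 PD-1cKO tumors, 6 lay above every WT tumor and the other 4 within the WT range. The log2 difference was 2.02 (SE 0.49, 95% interval 1.00 to 3.04, adjusted p = 0.0042). Over 29 alternatives the adjusted p lay between 5.12e-04 and 0.032 and the call held in 25, including all 20 omissions of a single tumor.

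Acta2 ranged from 40.2 to 106 FPKM in PD-1cKO tumors (median 61.0) and from 36.3 to 48.7 in WT tumors (median 40.7). Of 10 PD-1cKO tumors, 7 lay above every WT tumor, and the log2 difference was 0.53 (SE 0.15, adjusted p = 0.0085), under the 2-fold limit. Dpt ranged from 11.8 to 96.8 FPKM (median 20.2) against 8.70 to 22.4 (median 13.9), with 4 tumors above every WT tumor and a log2 difference of 1.03 (SE 0.35, adjusted p = 0.022). Fbln1 had 4 tumors above every WT tumor as well (9.19 to 32.6 against 6.28 to 13.2 FPKM) and a difference of 0.55 (SE 0.22, adjusted p = 0.051). The receptors did not show a called difference: Pdgfra -0.05 (interval -0.34 to 0.23) and Pdgfrb 0.14 (interval -0.16 to 0.45). Intervals also included 0 for Fap (0.12, -0.52 to 0.75), Postn (0.11, -0.41 to 0.62), Dcn (0.37, -0.12 to 0.86) and Pdpn (-0.14, -0.42 to 0.14).

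The median of all genes was -0.20 in this comparison and -0.04 after median-of-ratios scaling, and the member median of 0.26 became 0.42. Of the genes called over the table, 52.0% were higher with values as deposited and 73.3% after that scaling. Relative to it, Lum differed by 2.18 and Acta2 by 0.69.

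The PD-1cKO tumors were far from uniform for these genes. Tumors 4, 7 and 8 were the 3 highest of the 10 for Pdgfrb, Fap, Postn, Dcn, Lum, Fbln1 and Dpt, 7 of the 10 members, and for Col1a1, Col1a2 and Col3a1. Tumors 4 and 8 also had the highest shares of short noncoding RNA of the 20 WT and PD-1cKO libraries (64.0% and 66.5% of the FPKM sum) and the lowest sums over nuclear protein-coding genes (292638 and 272911 FPKM), while tumor 7 (55.0% and 342696) lay among the others. The part of library composition in this pattern was not tested. In these 3 tumors Lum read 78.3, 36.4 and 73.7 FPKM, Dpt 78.2, 72.6 and 96.8, and Fap 8.88, 6.70 and 13.03. The other 7 tumors held 1.11 to 3.92 FPKM of Fap, none above the WT range of 2.80 to 4.15. Acta2 was highest in tumors 7 (106 FPKM) and 5 (84.9), and Pdpn was lowest in tumor 8 (17.1). The SD of log2 values was larger in PD-1cKO than in WT tumors for all 10 members, by 1.31 times for Pdpn up to 5.16 times for Fap, and the same was true of 92.2% of all genes (median ratio 1.97).

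**Figure D4:**
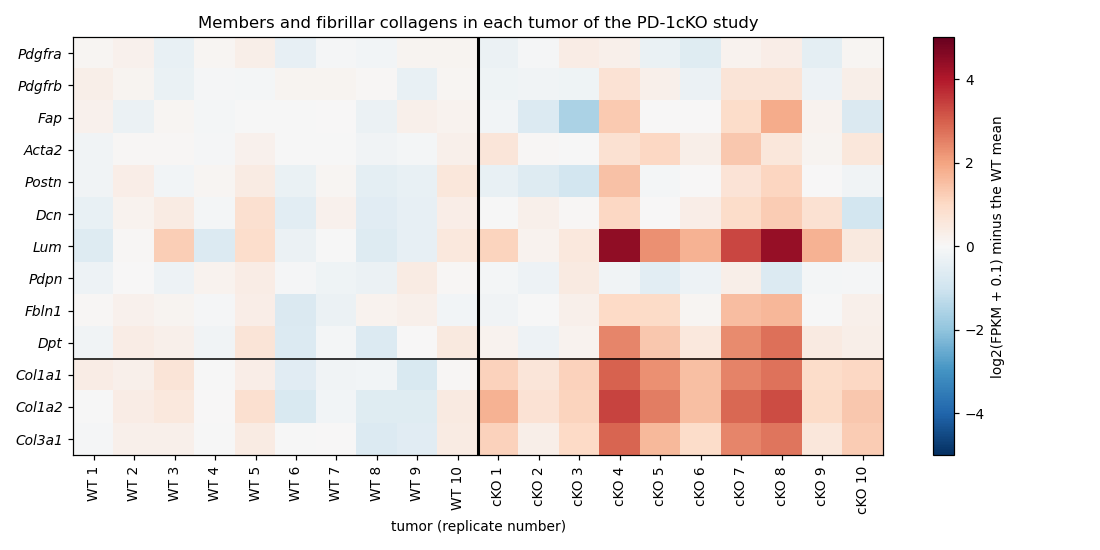
Log2(FPKM + 0.1) of the 10 members and 3 fibrillar collagens in each WT and PD-1cKO tumor, minus the mean of the 10 WT tumors (color scale). PD-1cKO tumors 4, 7 and 8 are high for most rows, with Lum and the collagens changing most, and Pdgfra and Pdpn stay near 0.

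The labels number the tumors of this experiment in 3 runs of identifiers, and whether these are batches is not stated. The first run holds PD-1cKO tumors 1 to 7 and no WT tumor, so it gives no value within the run. In the second, PD-1cKO tumor 8 (Lum 73.7 FPKM, Acta2 61.0, Dpt 96.8) lay above all 9 WT tumors (Lum 2.16 to 8.46, Acta2 36.3 to 48.6, Dpt 8.70 to 22.4). In the third, PD-1cKO tumors 9 and 10 had Lum at 12.0 and 5.01, Acta2 at 45.1 and 61.0 and Dpt at 19.7 and 17.6, and the 1 WT tumor 5.19, 48.7 and 20.04. With the runs as a covariate Lum differed by 2.78 (adjusted p = 0.032), Acta2 by 0.38 (adjusted p = 0.29) and Dpt by 1.57 (adjusted p = 0.067). No gene of the table was then called, with 6533 of them at an unadjusted p under 0.05.

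Fibrillar collagens, the main protein of the matrix that Dcn, Lum and Dpt bind, gave a second measure of the tissue. Col1a1 read 644 to 3204 FPKM in PD-1cKO tumors and 249 to 651 in WT tumors. Each member was related to the mean log2 level of Col1a1, Col1a2 and Col3a1 over the 10 WT and, separately, the 10 PD-1cKO tumors, 20 relations in all with permutation p-values adjusted over them. An adjusted p under 0.05 for Pearson r was reached by 5 members in WT and 7 in PD-1cKO tumors. Tumors within a group share tissue composition, so these are descriptions of how levels went together.

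In PD-1cKO tumors the closest relations were those of Dpt (r = 0.97, rho = 0.83, permutation p = 1.5e-04 and 0.0045, adjusted p = 0.0015 and 0.028) and Lum (r = 0.94, rho = 0.85, permutation p = 1.4e-04 and 0.0028, adjusted p = 0.0015 and 0.028). Without the 2 tumors farthest from the median collagen level, r was 0.94 and 0.85. At least 1 of tumors 4, 7 and 8, the 3 highest in collagens, remained in that check. It therefore does not show how the levels went together without these 3 tumors. Fbln1 (r = 0.90), Pdgfrb (0.90), Postn (0.88), Fap (0.83) and Acta2 (0.74) also passed, and without those 2 tumors Fap had r = 0.62 and Postn 0.70. Dcn (r = 0.59, permutation p = 0.070, adjusted p = 0.11), Pdgfra (0.47) and Pdpn (-0.29) did not pass. After median-of-ratios scaling Dcn (r = 0.72, permutation test, adjusted p = 0.034) and Pdgfra (r = 0.69, adjusted p = 0.048) did, the rank relation of Dcn excepted (rho = 0.49, adjusted p = 0.22).

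In WT tumors the order differed. Dcn had the highest r (0.86, rho = 0.88, permutation p = 0.0018 and 0.0017, adjusted p = 0.0060 and 0.028), followed by Dpt (0.78), Postn (0.75), Lum (0.74) and Acta2 (0.69). Without the 2 farthest tumors these were 0.83, 0.93, 0.59, 0.72 and 0.59. For Pdgfrb and Fap r was 0.01 in WT tumors and 0.90 and 0.83 in PD-1cKO tumors, and the difference between the groups was not tested. After median-of-ratios scaling Acta2 no longer passed in WT tumors (r = 0.61, permutation test, adjusted p = 0.082). Lum had rho = 0.68 (adjusted p = 0.059) in WT tumors, so its rank relation did not pass there.

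Across all 43 tumors, after subtraction of the group means, members were compared with the mean of the other 9. Dpt was closest (r = 0.92) and Pdpn farthest (0.37), and the rest lay between 0.51 (Acta2) and 0.78 (Fap). The closest pair was Pdgfra and Pdgfrb (r = 0.85), and the least close was Lum and Pdpn (-0.05). Genes outside the set most like the mean of the 10 were Thbs2 (0.94), Islr (0.93), Mmp2 (0.91), Fstl1 (0.91) and Egfr (0.91). Acta2 was nearest to Myl9 (0.90) and Tagln (0.84), Lum to Aspn (0.91) and Ogn (0.91), and Pdgfrb to Olfml2b (0.94). The points share libraries with the mitochondria-rich tumor among them, and the values are descriptions.

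The lists around the members in the PD-1cKO comparison had 3 of 5 fibrillar collagens called higher (Col1a2 by 1.94, Col1a1 by 1.68 and Col3a1 by 1.48 on the log2 scale). Of 15 activated tumor fibroblast genes 5 rose, led by Loxl2 (1.74, SE 0.27), Thy1 (1.64, SE 0.27), Adam12 (1.39, SE 0.29) and Lrrc15 (1.22, SE 0.28). Of 20 resting fibroblast genes 4 rose, led by Clec3b (2.41, SE 0.54). Fibulin and matricellular genes had 4 of 24 higher, led by Fbln7 (2.44, SE 0.46), and small leucine-rich proteoglycans 1 of 9, Podn (1.24, SE 0.33). Contractile genes had 1 of 18 higher, Cnn1 (1.28, SE 0.32). None of the 4 PDGF ligands was called, and Pdgfb differed by 0.76 (SE 0.15, adjusted p = 0.0016), under the 2-fold limit.

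Inflammatory fibroblast genes in PD-1cKO tumors had 1 called higher and 3 lower, and a median of -0.69, beside -0.20 for all genes. Cxcl12, the ligand of CXCR4, rose (1.58, SE 0.35, from 7.99 to 29.4 FPKM), and Has2, a hyaluronan synthase (-1.65, SE 0.43), Ccl2, a monocyte chemokine (-1.42, SE 0.28), and Cxcl1 (-1.18, SE 0.27) fell, out of 10 tested. Of the 1217 genes called in this comparison, 52.0% were higher. Adipocyte markers had 0 of 9 called and a median of 1.60, and their sum ranged from 8.45 to 1440 FPKM in PD-1cKO tumors and from 8.87 to 138 in WT tumors. The 1440 FPKM were in tumor 8, and tumors 4 and 7 had 109 and 259. Skeletal muscle markers had 0 of 10 called and summed to 1.53 to 1002 FPKM against 3.38 to 425, with 3.01, 40.5 and 3.03 in tumors 4, 7 and 8. Endothelial genes had 2 of 10 called (sum 49.9 to 159 against 44.7 to 76.8 FPKM), macrophage genes 5 of 10, T cell genes 10 of 10, the Schwann cell list 1 of 4, and the lymphatic, skin and epithelial lists 0 of 3, 0 of 2 and 0 of 5. Their part in the member differences was not tested.

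The antibody difference after 2 doses and the PD-1cKO difference were then set against each other by a contrast over the 4 groups. Calls here needed only an adjusted p under 0.01, with no fold limit, so their counts are not on the scale of the other comparisons. The contrast called 0 of the 10 members, against 0.0975% of genes (16 of 16404), with 2585 genes and 2 members at an unadjusted p under 0.05. Those were Pdgfrb (-0.71, SE 0.23, adjusted p = 0.16) and Acta2 (0.61, SE 0.28, adjusted p = 0.29), of which Pdgfrb was lower and Acta2 higher in the antibody comparison. With array weights, which called 938 genes, Acta2 passed. The interval for Lum ran from -1.42 to 2.22 and that for Dpt from -1.36 to 1.05, both of which contain a 2-fold difference in either direction.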

How the data were processed

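Bulk RNA of 3 cultures and 43 tumors was measured. The authors made stranded total RNA libraries depleted of ribosomal RNA, read paired ends of 50 bases, aligned them to mouse build B38 with Omicsoft Array Studio, counted Ensembl release 86 genes and deposited FPKM. Genes had been tested by the authors on counts with DESeq2, which FPKM does not allow. No depth per sample is known from these values, and no sample or column was left out. Groups came from the sample titles.

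Symbols and coordinates came from GENCODE M21 (GRCm38), matching 99.3% of gene identifiers. Values were used as deposited, with 0.1 FPKM added before log2. The fits covered genes that averaged 0.5 FPKM or more in 1 of the groups, and used limma 3.58.1 (R 4.3.3; lmFit, eBayes with a trend) on the groups compared, or on 4 groups for the difference between the models. Calls needed a Benjamini-Hochberg adjusted p under 0.01 and 2-fold, except for the difference between the models, which had no fold limit. The code was tested on simulated data. Relations used 100000 permutations, 2-sided. Alternatives were 1 FPKM added, no filter or one at 1 FPKM, scaling by median of ratios or by the protein-coding sum, array weights, the replicate block, all tumor groups in 1 fit, identifier runs and leaving out each tumor.

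The members and the 18 lists were chosen with earlier results of these data known. Genes named are the members, Pdcd1, the 3 collagens, at most 4 called genes with the largest change per list and comparison, and the genes most like the members over 43 tumors (averaging 1 FPKM or more). Values of a named gene in another comparison were added after they were seen. Lowercase sequences came from RefSeq (GRCm38.p6).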

Additional observations from a re-analysis of the deposited data

Results flagged for a closer look

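Of 60 combinations of a member and a group of 5 or 10 tumors, 5 had a lowest or highest tumor set apart from the others by Dixon's test on the log2 scale, and chance gives about 1 in 20. In the first isotype control tumor of 1 dose, Pdgfrb (7.50 FPKM), Acta2 (13.8 FPKM) and Fbln1 (2.41 FPKM) were set apart below the other 4 tumors. That tumor had 54.6% mitochondrial FPKM. Fbln1 was also set apart in the fourth isotype control tumor of 2 doses (15.0 FPKM, the lowest) and in the first PD-1 Ab-treated tumor of 1 dose (22.4 FPKM, the highest). No member passed the test of the difference between the antibody and the PD-1cKO comparisons.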

How the results depend on the processing

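No called value of a member changed sign in any setting. After 2 doses of antibody, where 1 member was called, the count was 0 without a filter and after median-of-ratios scaling, 3 with array weights (Acta2, Lum and Dpt), 2 with all tumor groups in 1 fit (Acta2 and Lum), and 0 to 3 when a tumor was left out: 3 without PD-1 Ab-treated tumor 5, and 0 without any other. In PD-1cKO against WT, where 1 was called, it was 0 without a filter, with array weights and with identifier runs, and 1 to 2 when a tumor was left out (Lum and Dpt without PD-1cKO tumor 2). Where 0 were called, array weights called 1 for baseline tumors (Lum), 1 for the antibody arms of 2 doses and 1 dose (Lum) and 1 for the difference between the models (Acta2), and leaving out a tumor gave 0 to 1 for baseline and for the antibody arms. The cause was not tested, except that no filter raises the number of genes tested and leaving out a tumor lowers that of samples. The 8 members called against culture stayed 8 in every setting, though with 1 FPKM added the log2 differences of Acta2, Dpt, Fap and Lum dropped to 5.28, 3.87, 2.58 and 1.93. Of the 12 relations with collagens, median-of-ratios scaling lost that of Acta2 in WT tumors and added those of Dcn and Pdgfra in PD-1cKO tumors, which gave 13.

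Same-numbered samples did not deviate together (correlations from -0.21 to 0.16), and the main fits did not treat the numbers as pairs. This check cannot show that there was no pairing, which the labels do not state. With the replicate block, 0 members were called after 2 doses (316 genes in place of 799) and 0 in PD-1cKO (891 in place of 1217), and 8 against culture (2426 in place of 3231). Over all genes, the 1217 PD-1cKO calls became 617 with 1 FPKM added, 589 with array weights, 0 with identifier runs and 743 to 1871 when a tumor was left out, and the 799 after 2 doses became 1773 with array weights, 450 without a filter and 375 to 1534 when a tumor was left out. The 89 for baseline tumors ranged from 0 (replicate block) to 398 (array weights), the 9 between the antibody arms from 1 to 955, and the 16 for the difference between the models from 1 to 938. FPKM gives no depth, so low values such as those of Lum in culture have no known counting error.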
